A study of Mus musculus with 4 samples.

Results

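The serine and folate one-carbon enzymes examined here were 9 genes, Phgdh, Psat1, Psph, Shmt1, Shmt2, Mthfd1, Mthfd2, Mthfd1l and Tyms. They were taken by symbol from the 50600 gene rows of the deposited tables, and all 9 were found, each as 1 row. The material was RNA from primary mouse regulatory T cells of strain C57BL/6NJ, the CD4+ T cells that hold immune responses in check, sequenced as 4 libraries numbered biological replicates 1 to 4. There was 1 group, so no treated or control arm exists. The 4 libraries carry the same donor identifier, sex was not collected, age is given as unknown, and a CD4+ T cell differentiation protocol is linked. The output names in the file headers contain the words activated and 24h, and no activating agent is named. The labels do not say which replicates came from separate animals or cultures, so every SD and p-value here measures the spread between these libraries.

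These enzymes turn a glycolytic intermediate into serine and move the side-chain carbon of serine onto folate. Phgdh, Psat1 and Psph carry out the successive steps from 3-phosphoglycerate to serine. Shmt1 in the cytosol and Shmt2 in mitochondria split serine into glycine and a folate-bound carbon, which the MTHFD enzymes oxidise to formate or to forms used for purines, and Tyms spends it to make thymidylate for DNA. In T cells the pathway is known for its rise after activation, when cells begin to divide and need nucleotides.

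The libraries were deep enough that counting error was small for every enzyme. Totals ran from 38590127 fragments in replicate 1 to 93035969 in replicate 4, and the 9 enzymes had between 2207 and 76132 fragments in a library. In the shallowest library the counting coefficient of variation, 1 over the square root of the count, was 0.588% for Shmt2 and 2.13% for Psph. Of 7 regulatory T cell markers 6 reached 10 TPM (fragments scaled for gene length so that every library has the same total). Foxp3, the factor that defines these cells, was at 109 ± 14.5 TPM (SD, n = 4), Il2ra at 702 ± 44.1, Nrp1 at 33.5 ± 4.54 and Ikzf2, the lowest, at 4.32 ± 0.788. The T cell markers Cd4 and Cd3e were at 539.8 ± 31.7 and 186 ± 11.2. Of 36 markers of other cell types, 1 reached 10 TPM, Cd8b1 at 21.8 ± 4.19, and 11 had no fragment in any library. Cd8a, the other CD8 marker, was at 1.11 ± 0.451. The summed level of those markers was 25.2 to 36.9 TPM per library. The highest marker was Cd79b for B cells (1.98 TPM), Adgre1 for macrophages (1.4), Xcr1 for dendritic cells (0.0991), Cxcr2 for neutrophils (0.0180), Eomes for NK cells (0.454), Itga2b for erythroid cells and platelets (0.527) and Epcam for stromal and epithelial cells (1.33). Replicate 1 stood apart: the rRNA-related feature Gm42418 took 2.04% of its fragments against 0.0704 to 0.175% in the others, and protein-coding genes held 88.2% of its TPM against 95.6 to 96.6%. Xist, the RNA that silences an X chromosome in female cells, was at 100.4 and 88.7 TPM in replicates 1 and 2 and at 0.716 and 0.603 in replicates 3 and 4. The Y-linked gene Kdm5d had 4 fragments each in the first 2 libraries, 2315 in the third and 3727 in the fourth. By these genes the first 2 libraries were female and the last 2 male, so the 4 did not all come from the same animal, although they carry the same donor identifier. The part of sex in the spread of the 9 enzymes was not tested.

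The sequence just before the transcription start was read for the members from RefSeq on GRCm38.p6, the assembly of mm10. All 9 genes matched, Psat1 with a pair of start sites, which gives 10 promoters. Each was cut to the 250 bases before the start and searched on both strands for 4 motifs: CACGTG (the E-box bound by MYC and other helix-loop-helix factors), TGATGNAA (a core of the element bound by ATF4), CCAAT (the box bound by NF-Y) and the NRF1 element, GCGCA and GCGC with any base between them. CCAAT was found in 6 of the 10 promoters, those of Mthfd1, Mthfd2, Phgdh, Psat1, Psph and Shmt1, and in 33.8% of 32851 mouse promoters of the same length. CACGTG was found in Tyms alone of the 9 genes (6.02% of all promoters), the NRF1 element in Shmt2 alone (3.74%) and TGATGNAA in none of the 10 (3.45%). The median GC content was 56.8% for the 10 and 52.4% for all. These are matches of letters in a short window and no binding was measured here. The 4 printed here are those of the most abundant enzyme, of a cytosolic and a mitochondrial dehydrogenase that share a reaction, and of the enzyme that makes thymidylate, each read 5′ to 3′ on the strand of its gene with the motif matches in capitals.
Shmt2, chr10:127522445-127522694, minus strand: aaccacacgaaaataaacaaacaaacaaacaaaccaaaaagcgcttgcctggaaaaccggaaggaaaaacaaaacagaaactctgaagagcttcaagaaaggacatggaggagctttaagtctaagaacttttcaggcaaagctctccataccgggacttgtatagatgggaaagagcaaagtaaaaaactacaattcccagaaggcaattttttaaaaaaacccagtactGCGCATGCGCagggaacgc
Mthfd2, chr6:83317605-83317854, minus strand: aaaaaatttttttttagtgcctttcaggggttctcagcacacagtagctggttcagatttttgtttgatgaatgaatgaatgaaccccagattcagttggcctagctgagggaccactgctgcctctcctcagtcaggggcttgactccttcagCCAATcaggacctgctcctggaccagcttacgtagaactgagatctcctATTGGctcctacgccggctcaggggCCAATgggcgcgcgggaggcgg
Mthfd1, chr12:76254982-76255231, plus strand: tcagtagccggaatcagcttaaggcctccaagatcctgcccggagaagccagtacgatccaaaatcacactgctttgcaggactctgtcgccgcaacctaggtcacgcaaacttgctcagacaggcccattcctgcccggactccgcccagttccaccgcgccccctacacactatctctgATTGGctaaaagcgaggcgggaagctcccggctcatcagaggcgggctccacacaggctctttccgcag
Tyms, chr5:30073626-30073875, minus strand: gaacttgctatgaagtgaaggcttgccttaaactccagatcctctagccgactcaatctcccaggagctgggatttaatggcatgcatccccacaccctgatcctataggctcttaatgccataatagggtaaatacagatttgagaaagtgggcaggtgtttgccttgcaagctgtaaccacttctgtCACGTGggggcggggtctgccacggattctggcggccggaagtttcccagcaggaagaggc
The Shmt2 window holds 1 NRF1 match, 19 to 10 bases before the start. The Mthfd2 window holds 3 CCAAT matches, the first base of each at 96, 47 and 22 bases before the start, and the Mthfd1 window 1, at 69. The Tyms window holds 1 E-box, 61 to 56 bases before the start.

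All 9 enzymes were well expressed. In bulk RNA, fewer cells holding a transcript and less of it per cell cannot be told apart. Each had a mean of at least 10 TPM, as 36.2% of 21764 protein-coding genes did, and 7 had at least 100, as 9.43% did. Their median was 266 TPM against 0.520 for all protein-coding genes and 31.0 for the 10383 with a mean of at least 1 TPM. The 9 together summed to 2727, 2833, 2888 and 2950 TPM in the libraries in order of number, a mean of 0.285% of all TPM. From the highest to the lowest the order of the means was Shmt2, Phgdh, Mthfd1, Psat1, Mthfd2, Mthfd1l, Shmt1, Tyms and Psph.

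**Figure D1:**
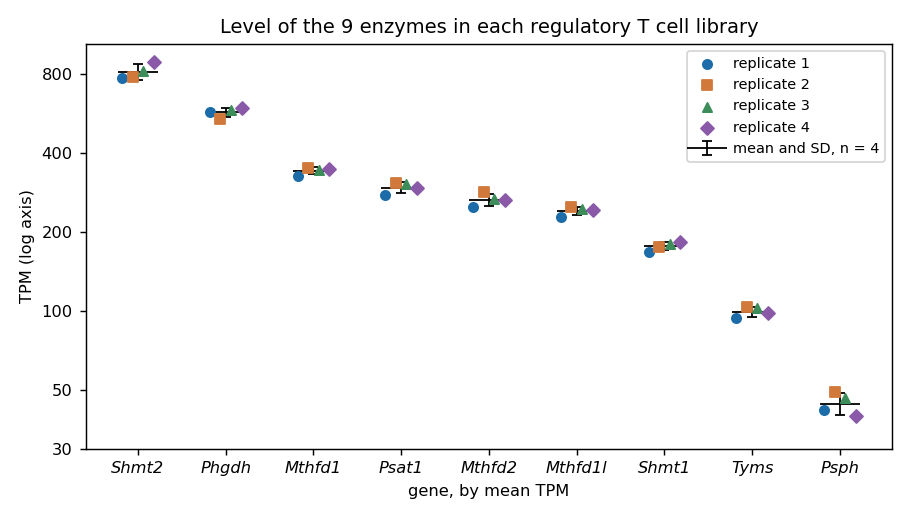
TPM of each enzyme in each of the 4 libraries on a log axis, genes in order of mean level, with the mean and SD (n = 4) as black bars. Levels run from 888 TPM for Shmt2 in replicate 4 to 39.8 TPM for Psph in replicate 4, and the points of a gene lie close together beside the gaps between most genes.

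The first enzyme of serine synthesis was far more abundant than the last. Phgdh, the dehydrogenase that commits 3-phosphoglycerate to serine (ENSMUSG00000053398.11, mm10 chromosome 3, 98313170 to 98339990, minus strand, 13 exon blocks), stood at 571 and 539.6 TPM in replicates 1 and 2 and at 582 and 593 in replicates 3 and 4. Replicate 2 was the lowest and the highest library was 1.10 times it. Its mean of 571 ± 22.9 TPM (SD, n = 4) placed it at rank 231 of the protein-coding genes. Psat1, the aminotransferase of the second step (ENSMUSG00000024640.9, chromosome 19, 15904678 to 15947337, minus strand), had 276, 307, 305 and 293 TPM, lowest in replicate 1. Psph, the phosphatase that releases serine (ENSMUSG00000029446.14, chromosome 5, 129765558 to 129787449, minus strand), had 42.2, 49.2, 47.0 and 39.8 TPM, with a mean of 44.5 ± 4.30. It was the least abundant of the 9 and the most spread, its highest library being 1.24 times its lowest.

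Within each library Phgdh exceeded Psat1 by 0.95 ± 0.11 on the log2 TPM scale (SD, n = 4), from 0.81 in replicate 2 to 1.05 in replicate 1. Psat1 exceeded Psph by 2.73 ± 0.10 and Phgdh exceeded Psph by 3.68 ± 0.19, a 12.9-fold difference, in 4 of 4 libraries. With gene length taken from the principal transcript in place of all exons, Phgdh minus Psat1 was 0.64 ± 0.11. Psat1 minus Psph was then 2.11 ± 0.10 and Phgdh minus Psph 2.76 ± 0.19. None of these ranges crossed 0. An exact permutation test that flips signs (two-sided) over 4 libraries cannot give less than p = 0.125, the value of all 10 pairs compared (Benjamini-Hochberg adjusted p = 0.125), so the differences are given by size and spread.

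The levels of Phgdh and Psph carry limits of counting. Of the 50-base words in Phgdh transcripts, 47.8% also occur in transcripts of other genes, 23 in all, most of them in the processed pseudogene Gm7901, which shares 933 of 2434 words and had 12.0 TPM. Reads that map to several places did not count under the authors' settings, and their number is not in the deposited tables. The share of words was 8.82% for Psph, 5.72% for Tyms, 3.37% for Shmt1, 1.25% for Shmt2 and 0.739% for Psat1. It was 0 for Mthfd1, Mthfd2 and Mthfd1l. Words were matched on both strands. All 403 shared words of Psph were with Cct6a and all 135 of Shmt1 with Smcr8, genes that overlap their exons on the opposite strand. Words from such an overlap do not by themselves make a read map to several places. For Psph the limit is this overlap: Cct6a, a chaperonin subunit gene with 723 TPM, covers 452 bp or 10.4% of the Psph exon length. The counting used strand, and the part of any Cct6a reads of the wrong strand in the Psph count was not tested.

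Serine hydroxymethyltransferase RNA was mostly that of the mitochondrial enzyme. Shmt2 (ENSMUSG00000025403.5, chromosome 10, 127517123 to 127522444, minus strand) stood at 770 and 775 TPM in replicates 1 and 2 and at 817 and 888 in replicates 3 and 4. Its mean was 812 ± 54.8 (SD, n = 4), and it was the most abundant of the 9 in every library, at rank 140 of the protein-coding genes. Shmt1, its cytosolic counterpart (ENSMUSG00000020534.14, chromosome 11, 60788104 to 60811718, minus strand), had 169, 176, 181 and 183 TPM, a mean of 177 ± 6.28. The 2 ranges lay far apart. The difference was 2.20 ± 0.06 on the log2 TPM scale, from 2.14 to 2.28, a 4.58-fold higher level of Shmt2.

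The dehydrogenase and formate enzymes had the other order for their cytosolic member. Mthfd1, a cytosolic protein that joins dehydrogenase, cyclohydrolase and formyltetrahydrofolate synthetase activities (ENSMUSG00000021048.7, chromosome 12, 76255298 to 76319803, plus strand), had 328, 352, 344 and 347 TPM, a mean of 343 ± 10.3. In mitochondria the same work is divided: Mthfd2, the dehydrogenase and cyclohydrolase (ENSMUSG00000005667.8, chromosome 6, 83305691 to 83325908, minus strand), had 248, 283, 266 and 265 TPM, and Mthfd1l, the synthetase that yields formate (ENSMUSG00000040675.17, chromosome 10, 3973118 to 4167081, plus strand), had 229, 248, 245 and 243. Both were lowest in replicate 1 and highest in replicate 2. Both lay under Mthfd1 in every library, Mthfd2 by a log2 difference of -0.37 ± 0.04 and Mthfd1l by -0.51 ± 0.01. Mthfd2 exceeded Mthfd1l by 0.14 ± 0.03 and lay under Shmt2, the step before it, with Shmt2 higher by 1.61 ± 0.12. Mthfd1 exceeded Shmt1, the other cytosolic enzyme, by 0.95 ± 0.03.

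Taken as arms, the mean log2 TPM of Shmt2, Mthfd2 and Mthfd1l was 8.54 and that of Shmt1 and Mthfd1 was 7.94. The mitochondrial arm was higher by 0.58, 0.61, 0.59 and 0.61 in replicates 1 to 4, a mean of 0.60 ± 0.01 (SD, n = 4). The value averages a Shmt pair in which the mitochondrial gene was higher with MTHFD genes in which the cytosolic gene was higher.

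**Figure D2:**
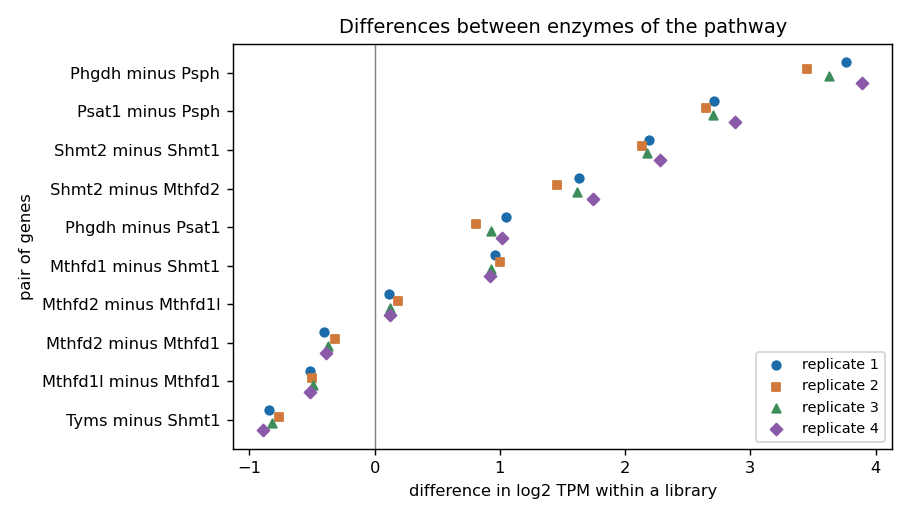
Difference in log2 TPM between 10 pairs of enzymes within each of the 4 libraries; points to the right of 0 mean that the first gene was higher. No pair changes sign between libraries, from -0.83 on average for Tyms minus Shmt1 to 3.68 for Phgdh minus Psph.

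Tyms, thymidylate synthase (ENSMUSG00000025747.12, chromosome 5, 30058202 to 30073617, minus strand), was lower than all members but Psph. It had 94.0, 104, 102 and 98.6 TPM, a mean of 99.7 ± 4.46, with replicate 1 the lowest. Its level relative to Shmt1 was -0.83 ± 0.05 on the log2 TPM scale. Rrm2, a ribonucleotide reductase subunit of S phase, had 822 ± 56.8 TPM.

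Neighbours in the order were mostly separate. Of the 8 neighbouring pairs, Psat1 (276 to 307 TPM) and Mthfd2 (248 to 283) overlapped in range, although Psat1 was the higher in each of the 4 libraries, by 0.15 ± 0.03 on the log2 TPM scale. The lowest Mthfd2 library, at 248.2 TPM, lay barely above the highest of Mthfd1l, at 247.99. The other pairs had no overlap, the closest being Mthfd1 over Psat1 by 0.21 ± 0.04.

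Part of the order rests on how gene length is counted. The deposited length is the union of all exons, and the principal protein-coding transcript of GENCODE covers 40.0% of it for Psph, 51.9% for Tyms, 59.8% for Mthfd2, 61.5% for Psat1 and 73.0 to 83.1% for the other 5. With the principal transcript as the length, Psph went from 44.5 to 77.6 TPM, Tyms from 99.7 to 134 and Mthfd2 from 266 to 309.6, while Mthfd1l went from 241 to 202. Psat1 then had 335 TPM and stood above Mthfd1 at 327. Mthfd2 minus Mthfd1 shrank to -0.08 ± 0.04, Mthfd2 minus Mthfd1l grew to 0.61 ± 0.03 and Tyms minus Shmt1 became -0.33 ± 0.05 on the log2 TPM scale. Shmt2 minus Mthfd2 went from 1.61 ± 0.12 to 1.31 ± 0.12, and Shmt2 minus Shmt1 stayed at 2.20 ± 0.06. This length was chosen after the values had been seen.

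**Figure D3:**
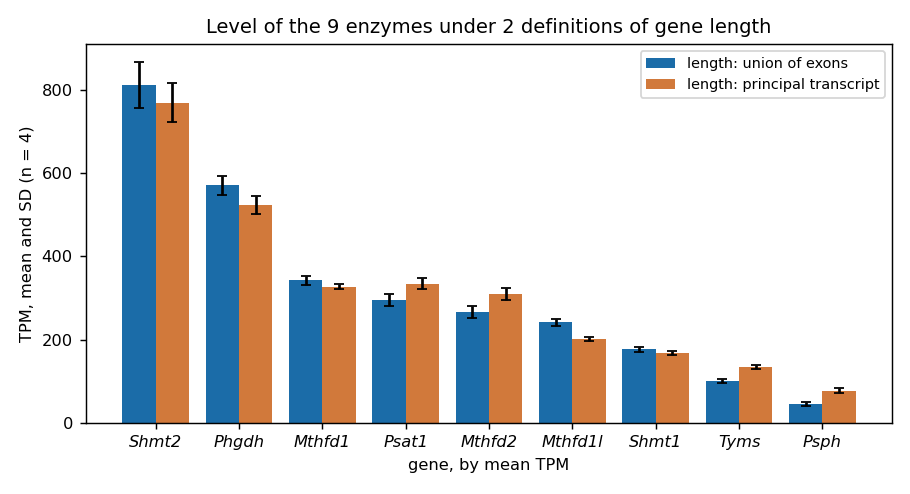
Mean TPM and SD (n = 4 libraries) of each enzyme with gene length taken as the union of exons (blue) or the principal transcript (orange). Shmt2 and Phgdh lead under both, at 812 and 571 or 769 and 523 TPM, while Psat1 and Mthfd1 change places.

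None of the 9 enzymes was called as more variable between libraries than genes of like abundance. By edgeR's quasi-likelihood dispersion with Benjamini-Hochberg adjustment, 0 of 9 passed at 0.05, where 0.468% of 12396 tested genes did. At an unadjusted p under 0.05 the count was also 0, where 5.33% of tested genes passed, and DESeq2 marked 0 of the 9 as dispersion outliers. A count of 0 in 9 is near these background shares and is not a result about the members. The ratio of a gene's dispersion to that fitted for its abundance was under 1 for 6 members, between 0.0888 for Mthfd1l and 0.408 for Mthfd2. It was above 1 for 3: Psph at 1.68 (edgeR adjusted p = 0.985), Shmt2 at 1.54 (adjusted p = 0.985) and Phgdh at 1.16 (adjusted p = 0.997). The coefficient of variation of TPM was 3.02 to 9.66% over the members, with a median of 4.47%. The median was 6.41% for the 2053 protein-coding genes of at least 100 TPM, a level that Tyms and Psph did not reach. For the 10383 protein-coding genes of at least 1 TPM it was 8.10%.

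Replicate 1 read low in TPM for most members and not after scaling by TMM, a scaling that sets the libraries to a common level over most genes. By TPM it was the lowest library for 7 of the 9. The share of all genes lowest in replicate 1 by TPM was not computed, so this count is not a result about the members. Protein-coding genes as a whole held 88.2% of TPM in that library against 95.6 to 96.6% in the others. On log2 CPM (fragments scaled to the library total) scaled by TMM it was the lowest for 0 of the 9, where it was the lowest for 28.4% of tested genes, and the highest for Phgdh and Mthfd1, where it was the highest for 28.6%. On that scale replicate 2 was the highest for 5 members, Psat1, Psph, Mthfd2, Mthfd1l and Tyms, where it was the highest for 28.5% of tested genes, and the lowest for Phgdh, Shmt1 and Shmt2, where it was the lowest for 30.1%. Replicate 3 was the lowest for Mthfd1, Mthfd2 and Mthfd1l (21.7% of tested genes) and the highest for 0 of the 9 (23.1%). Replicate 4 was the lowest for 3 members, Psat1, Psph and Tyms (19.9% of tested genes), and the highest for 2, Shmt1 and Shmt2 (19.8%). Leaving out replicate 1 moved the mean of Shmt2 to 827 TPM, of Mthfd2 to 271, of Psph to 45.3 and of Tyms to 102.

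The 3 members with the widest spread differed in which libraries were high. On log2 CPM scaled by TMM, Psph was at 5.86, 5.98, 5.88 and 5.68 in replicates 1 to 4, so replicate 4 was the low one. Shmt2 was at 9.58, 9.48, 9.52 and 9.68, with replicate 4 the highest, and Phgdh was at 8.82, 8.63, 8.71 and 8.78, with replicate 2 the lowest. The other 6 members each had a range of 0.05 to 0.12. The profile averaged over the 9 members, centred on 0, was 0.02, 0.01 and -0.03 in replicates 1 to 3 and closer to 0 in replicate 4, and thus nearly flat. The genes nearest to it by root mean square distance over the 4 libraries were Cry1 (0.000373), Larp1b (0.00388) and Ubqln1 (0.00514), among 11045 protein-coding genes of which 153 lay within 0.02.

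**Figure D4:**
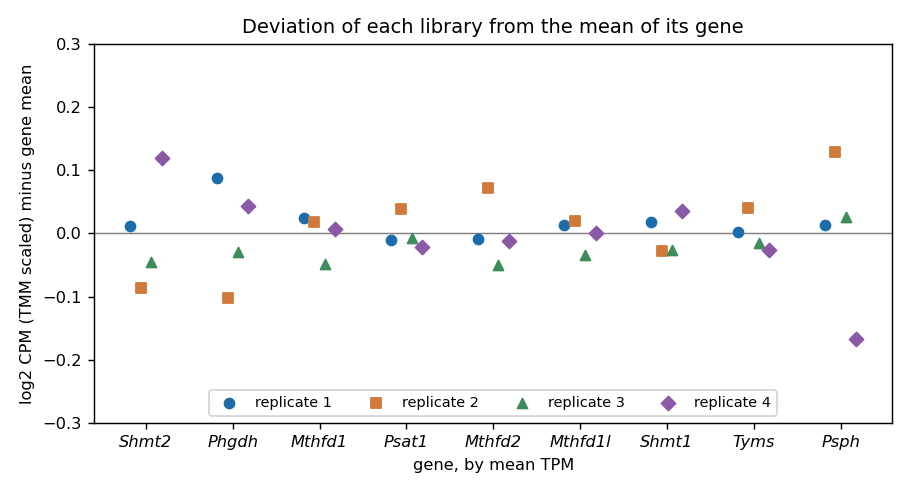
Log2 CPM (TMM scaled) of each enzyme in each library minus the mean of that enzyme over the 4 libraries. Shmt2, Phgdh and Psph reach furthest from 0, to 0.12 for Shmt2 and -0.17 for Psph in replicate 4 and to -0.10 for Phgdh in replicate 2.

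Other genes of the pathway were described from 11 lists, 105 genes in all, of which 78 had a mean of at least 10 TPM and 47 of at least 100. Of the 92 that could be tested, 0 varied between libraries by edgeR at an adjusted p of 0.05, where 0.468% of all tested genes did. At an unadjusted p under 0.05 there were 3, Fpgs, Pfas and Gcat, where 5.33% of all tested genes passed. A count of 3 in 92 is no more than that share and is not a result about these genes. On the supply side, all 7 glycolysis genes were above 100 TPM, led by Ldha (2802 ± 162), Pkm (1389 ± 95.8) and Gapdh (1231 ± 103). Pgam1, which takes 3-phosphoglycerate onward in glycolysis and so away from Phgdh, had 191 ± 5.96. Of 8 serine transport genes 7 reached 10 TPM, with the plasma membrane transporters Slc1a5 at 289 ± 13.0 and Slc38a1 at 164 ± 9.26 and the mitochondrial serine carrier Sfxn1 at 261 ± 10.5. Slc7a10 had 0 fragments, which allows up to 0.0322 to 0.0777 CPM across the libraries, counting error only.

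The mitochondrial genes around Shmt2, Mthfd2 and Mthfd1l were uneven. Mthfd2l, a second mitochondrial dehydrogenase, had 1.30 ± 0.111 TPM beside 266 for Mthfd2, and Aldh1l2, which oxidises formyl-folate in mitochondria, had 0.116 ± 0.0148. Gldc, the decarboxylase of the glycine cleavage system, had 0, 3, 4 and 2 fragments in replicates 1 to 4, and Dmgdh had 0 in all. Gcsh at 152 ± 14.8 and Dld at 112 ± 8.95 TPM, which glycine cleavage shares with other mitochondrial complexes or with lipoate transfer, were high, and the mitochondrial folate carrier Slc25a32 had 61.7 ± 6.87. Of the 10 genes on this list 4 reached 10 TPM.

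Folate uptake and cytosolic folate genes reached 10 TPM in 4 of 11 cases. The reduced folate carrier Slc19a1 had 145 ± 4.49 TPM and Fpgs, which adds the glutamates that keep folate in the cell, had 78.3 ± 7.63. The folate receptor genes Folr1 and Folr2 and the liver enzyme gene Ftcd had 0 fragments. Among 12 genes listed for the methionine cycle and transsulfuration, with relatives of Ahcy counted in, 7 reached 10 TPM. The highest were Mat2a (378 ± 25.3), Ahcy (249.9 ± 8.07) and the Ahcy-like gene Ahcyl1 (68.9 ± 4.52), and Mat1a and Bhmt had 0 fragments.

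Nucleotide synthesis spends the carbon. All 12 purine genes were above 10 TPM and 11 above 100. Gart (489.6 ± 16.5), an enzyme with a step that takes formyl-folate, Paics (467 ± 38.4) and Impdh2 (421 ± 14.7) led them. All 11 pyrimidine and deoxynucleotide genes reached 10 TPM and 6 reached 100, with Rrm2, Dut (517 ± 43.1) and Cad (437 ± 30.0) the highest and Tk2 (11.7 ± 2.06) and Rrm2b (10.4 ± 0.786) the lowest. The 10 S phase genes had a median of 574 TPM, with Pcna at 816 ± 83.5, Mcm3 at 766 ± 30.0 and Mcm5 at 735 ± 13.3.

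Of 6 regulators known to act on these enzymes or on metabolism more widely, all reached 10 TPM and 2 reached 100. Atf4, a stress-responsive activator of serine synthesis genes, had 707 ± 34.6 TPM, Myc, a transcription factor that drives metabolic genes in activated T cells, 497 ± 13.4, and E2f1, a cell cycle factor, 99.6 ± 2.84. Mtor (40.9 ± 3.25), Nfe2l2 (32.0 ± 2.26) and Eif2ak4 (27.8 ± 2.00) were lower. Of 10 amino acid and stress genes known to respond to ATF4, 5 reached 10 TPM, and the list median was 13.4 TPM. Slc7a5 (467 ± 10.2), Slc3a2 (199.97 ± 11.1) and Aldh18a1 (198 ± 12.7) were the highest, and Slc7a11 had 0, 1, 1 and 11 fragments. Among 8 genes listed for other uses of serine or glycine, 5 reached 10 TPM. Serinc3 (205 ± 18.9), Sptlc1 (71.7 ± 3.53) and Serinc1 (53.8 ± 5.15) led them, and the serine dehydratase genes Sds and Sdsl had 0 fragments. RNA levels say nothing here of protein amounts or of flux through any step.

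**Figure D5:**
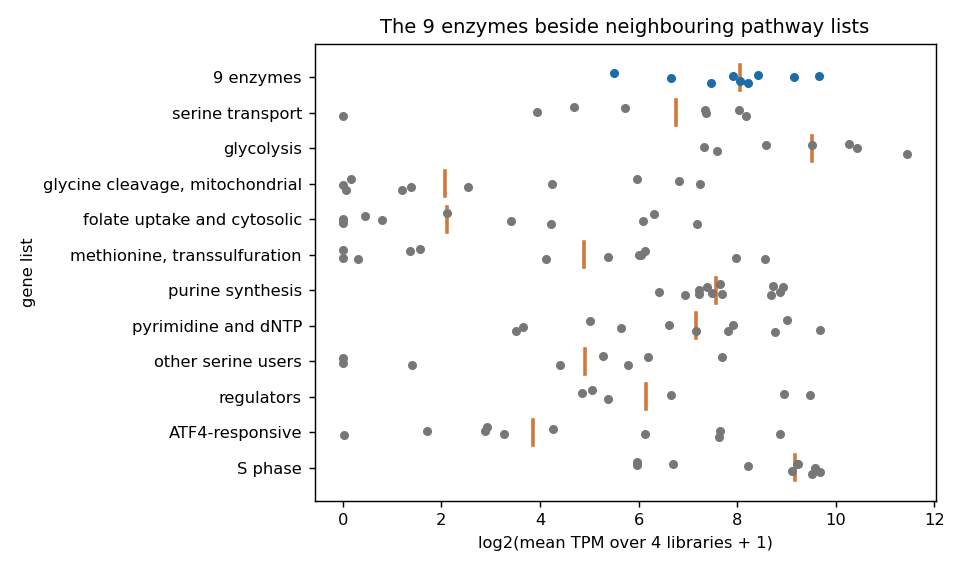
Mean TPM over 4 libraries of each gene as log2(mean TPM + 1), by list, with the list median as an orange bar; the 9 enzymes are blue. The 9 enzymes, with a median of 266 TPM, lie among the purine (189) and S phase (574) lists, while the glycine cleavage list has a median of 3.23 TPM.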

How the data were processed

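RNA of 4 regulatory T cell libraries was sequenced by the submitters. Per the file headers, the authors ran featureCounts 1.4.6-p4 to count fragments on each gene, as read pairs with both ends mapped, over exons grouped by gene, strand setting 2, GENCODE mouse release 13, on mm10 per the labels. The deposited counts are raw. The authors' command asks neither for reads that map to several places nor for reads over 2 genes. Software for alignment was not given in the sources used here. The deposited tables hold each gene's exon union length in bp.

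TPM was computed here from counts and those lengths. Symbols came from GENCODE release 21 by ID without version (50376 of 50600 matched). Spread between libraries was tested by edgeR 4.0.16 under R 4.3.3. Low counts were removed by filterByExpr and libraries were scaled by TMM. The quasi-likelihood model held only an intercept, with a robust prior. The p-value was the upper tail of the F distribution, with Benjamini-Hochberg adjustment over 12396 genes. The test was also run on simulated data, and its outcome is not reported here. DESeq2 1.42.0 gave alternative size factors and dispersion outliers. Other lengths, filters, scalings and leaving out each replicate were also tried. No pair of libraries was a duplicate (chi-square over its degrees of freedom 12.2 to 137). Members and lists were chosen with earlier results of these data known. Genes named are the members, fixed pathway genes (some are not reported here), the 3 highest genes of a list, its lowest if under 1 TPM, the highest of each marker list, the 3 of nearest profile, and, chosen after their values were seen, Pgam1, Pfas, Gcat, Tk2, Rrm2b, Mtor, Nfe2l2, Eif2ak4, Nrp1, Ikzf2, Kdm5d, Cct6a, Gm7901, Gm42418 and Xist. The labels name the assay total RNA-seq and link a protocol for polyA+ libraries.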

Additional observations from a re-analysis of the deposited data

Results flagged for a closer look

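Mthfd2 minus Mthfd1l was 0.19 on the log2 TPM scale in replicate 2, far from the other 3 libraries, which lay between 0.115 and 0.125. The gap passed Dixon's test for 4 values. Of 20 values tested this way 1 passed, and chance passes about 1 in 20.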

How the results depend on the processing

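The 10 pair differences and the mitochondrial minus cytosolic difference kept their sign under every setting run. Of 175 values recomputed under another setting, 29 mean levels and 4 others moved beyond the limit set for a value to count as the same. The 29 include the FPKM of every member, another unit that was bound to differ from TPM (171 against 571 for Phgdh). They also include values moved by the TPM total being taken over protein-coding genes only. Psat1 passed Mthfd1 (335 against 327 TPM) with the principal transcript as gene length. The number of members called as varying between libraries was 0 under every setting run (DESeq2 size factors, no filter on low counts, no robust prior, DESeq2 dispersion outliers, and each replicate left out). Over all tested genes the count was 58, and it became 110 with no filter on low counts, when more genes were tested, 36 with no robust prior, and 37 to 69 with a replicate left out, lowest without replicate 1. The cause of the last 2 was not tested. The mitochondrial minus cytosolic difference of 0.60 became 0.63 with the principal transcript as gene length, a setting added after the data were seen, and 0.59 to 0.60 with a replicate left out. The order of the 9 enzymes was as reported with FPKM, with TPM over protein-coding genes and with lengths less 200 bp. Samples could not be paired between groups because there is 1 group, and only genes were paired, within each library. Exact tests on 4 libraries cannot pass 0.05. Fragment length and reads mapping to several places are not in the tables.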
